A study of Mus musculus with 6 samples.

Results

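The genes that make, cut and bind hyaluronan were followed in cultured cells labelled as mouse vascular smooth muscle cells (VSMC), with and without Nono. The 10 genes were picked by name from the deposited count table, which lists 56393 Ensembl genes: the synthases Has1, Has2 and Has3, the degrading proteins Hyal1, Hyal2 and Cemip, the receptor Cd44, and the binding or matrix-organising proteins Vcan, Hapln1 and Tnfaip6. All 10 were matched to 1 Ensembl ID each. The study compared Nono knockout cells (KO, n = 3 libraries) with wild-type cells (WT, n = 3 libraries), and its title concerns vascular calcification and Bmp2 transcription. Both groups were primary cells grown in DMEM with 20% serum and received no further treatment. The labels give neither the age or sex of the animals, nor how the knockout was made, nor whether replicates were separate cultures or animals. The p-values therefore measure only the spread between these libraries, which may be technical.

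Hyaluronan is a long, unsulfated sugar chain that synthases in the plasma membrane build from UDP-glucuronic acid and UDP-N-acetylglucosamine and push straight into the matrix. Cells bind it through receptors such as CD44, versican and link proteins organise it into a swollen coat, and hyaluronidases and CEMIP cut it into fragments that are finished off in lysosomes. In the vessel wall this coat is made by smooth muscle cells and fibroblasts, and it is known to expand when smooth muscle cells migrate and divide after injury.

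Each library held 56529170 to 61670083 counts. Nono, the targeted gene on chromosome X, had 3283, 3013 and 3011 counts in the KO libraries, against 33009, 30132 and 32649 counts in the WT libraries, and was 9.54-fold lower in KO. Of 18732 genes tested between KO and WT, 69.3% passed an adjusted p of 0.05 (edgeR quasi-likelihood test, Benjamini-Hochberg adjustment), 35.1% higher and 34.2% lower in KO. Other features separated the same libraries. The 4 Y-linked genes examined summed to 149.9 to 163.3 CPM (counts scaled to a common library size) in KO and to 0 to 0.0795 CPM in WT. Of 10 fibroblast markers 9 were higher in KO, with a sum of 16880 to 18220 CPM in KO and 1404 to 1604 CPM in WT. Among these 9, Lum, Thy1, Dpt and Fap passed the filter on low counts through their KO libraries alone. Of 4 tested mesothelial and epithelial markers (8 listed) 1 was higher and 2 were lower, with a sum of 8.53 to 11.6 CPM in KO and 77.5 to 85.0 CPM in WT, while Epcam and Krt18 were at 0 counts in every library. Msln, among the 2 lower, passed the filter on low counts through WT alone, and Cdh1, the higher one, through KO alone. The labelled cell type was not borne out by its defining marker Myh11, the smooth muscle myosin heavy chain, which was at 0.219 ± 0.218 CPM in KO and 0.467 ± 0.264 CPM in WT (SD, n = 3 each). Of 8 smooth muscle markers 5 were higher and 2 lower, and Acta2 was at 161.3 ± 2.4 CPM in KO and 16.4 ± 1.27 CPM in WT (SD, n = 3 each). Cnn1, among the 5 higher, passed the filter on low counts through KO alone. Of 8 macrophage markers 4 were tested, with 2 higher (Csf1r 20.8-fold and Cd68 2.06-fold) and 1 lower (Lyz2 39.6-fold), and a sum of 5.49 to 6.65 CPM in KO and 9.16 to 10.7 CPM in WT, while Adgre1, Ptprc and Itgam were at 0 counts in all 6 libraries. Csf1r passed the filter on low counts through KO alone and Lyz2 through WT alone. Of 8 endothelial markers 5 were tested, with 2 higher (Pdpn and Vwf) and 3 lower (Pecam1, Tek and Kdr). Their sum was 124.6 to 126.8 CPM in KO and 3.29 to 3.62 CPM in WT. Nearly all of the KO sum was Pdpn, at 122.9 to 124.9 CPM in KO. Pecam1 was at 0.647 ± 0.073 CPM in KO and 1.53 ± 0.09 CPM in WT (SD, n = 3 each). Kdr and Cdh5 had 0 counts in KO and 104 and 61 counts in WT. Pdpn and Vwf passed the filter on low counts through KO alone, and Tek and Kdr through WT alone. The part of these differences in the results below was not tested.

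The synthases and the degrading proteins changed makeup between KO and WT, while Cd44 did not pass the test and Vcan differed by 1.195-fold. Of the 9 genes tested, 4 were higher in KO (Has2, Hyal2, Cemip and Vcan), 3 were lower (Has1, Has3 and Tnfaip6) and 2 did not pass the test (Hyal1 and Cd44). Against the 69.3% of all tested genes that passed, 7 of 9 (77.8%) is close to the background and is no result about the group. The 3 KO and 3 WT values did not overlap in 7 of the 9, where 75.5% of all tested genes did not overlap. The median absolute log2 fold change was 1.3 for the 9 genes and 0.91 for all tested genes. Hapln1 had no count in any library and was not tested. In these bulk libraries, fewer cells of a type and less RNA per cell cannot be told apart.

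**Figure D1:**
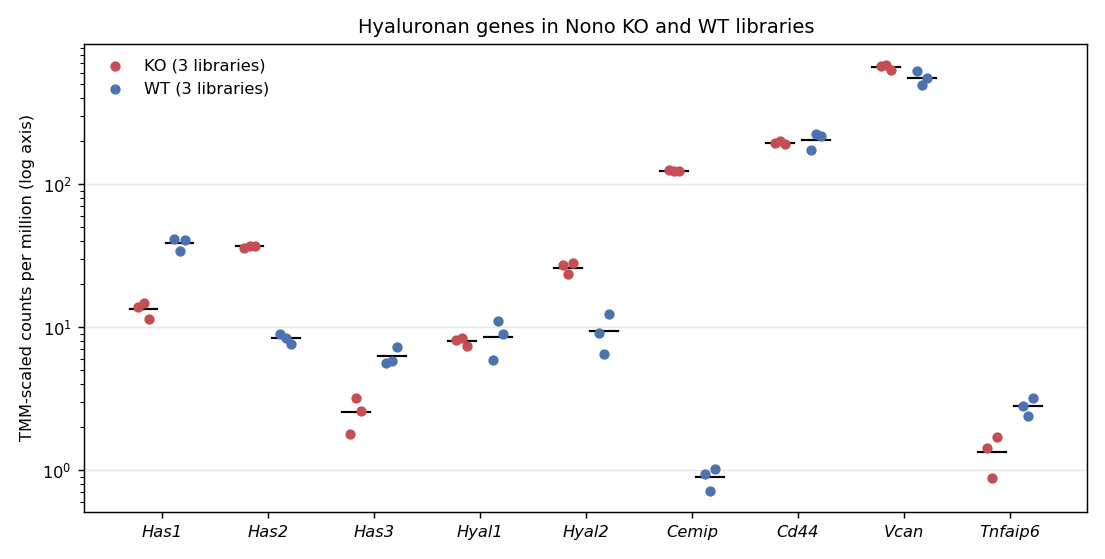
TMM-scaled CPM of 9 hyaluronan genes on a log axis, with KO left of WT; each point is 1 library and each bar the mean of 3. Cemip lies at 123.3 to 125.7 CPM in KO and 0.717 to 1.02 CPM in WT, Has1 and Has2 differ in opposite directions, and Cd44 and Hyal1 overlap; Hapln1, at 0 counts in every library, is not drawn.

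Has2 rose and Has1 fell, so that the leading synthase transcript differed between the genotypes. Has2 (ENSMUSG00000022367, chromosome 15), the synthase that mouse embryos need for heart development, had 35.9, 37.0 and 36.8 CPM in KO, against 9.001, 8.35 and 7.60 CPM in WT. Every KO library lay above every WT library, and the difference was 4.39-fold (log2 ratio of KO over WT 2.14 ± 0.09 SE, edgeR adjusted p = 1.79e-07). Has1 (ENSMUSG00000003665, chromosome 17), a synthase linked to inflammation, had 13.8, 14.7 and 11.4 CPM in KO, against 41.4, 33.9 and 40.4 CPM in WT. All KO values were below all WT values, 2.90 times lower (log2 ratio -1.54 ± 0.12 SE, edgeR adjusted p = 8.16e-06). Has3 (ENSMUSG00000031910, chromosome 8), a synthase known for shorter chains, was the lowest of the family per length in FPKM, with 1.79, 3.20 and 2.60 CPM in KO and 5.59, 5.82 and 7.30 CPM in WT. It was 2.47-fold lower without overlap of the groups (log2 ratio -1.30 ± 0.24 SE, edgeR adjusted p = 0.00134).

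Neighbouring loci share some exon bases with these synthases, and the strand setting of the counting is not given in the sources used here. Has2os, the antisense RNA of Has2, covers 182 of the 4237 exon bases of Has2 (4.3%) on the opposite strand. It had 70, 69 and 70 counts in KO and 10, 38 and 3 counts in WT, against 6307 counts of Has2 in KO and 1547 in WT. Has2os was itself 4.33-fold higher in KO (edgeR adjusted p = 0.0341), and without strand its reads cannot be told apart from those of Has2 in the shared bases. Has3 shares 352 of 6380 exon bases (5.52%) with Chtf8, a gene on the opposite strand that the table lists under 2 IDs. The first ID had 17543 counts in KO and 30033 in WT and the second 7348 in KO and 1368 in WT, all above the 434 and 1161 counts of Has3 in KO and WT, so the level of Has3 is uncertain.

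Per transcript length, Has2 made up most of the synthase signal in KO and Has1 in WT. In the deposited FPKM, which scales fragments by transcript length and library size, Has2 was 61.3%, 58.5% and 64.5% of the 3 synthases together in KO, against 9.72%, 10.6% and 8.38% in WT. Has1 was 35.5%, 37.9% and 30.9% in KO, against 85.3%, 83.1% and 85.9% in WT. The share of Has3 averaged 3.78 ± 0.77% in KO and 5.69 ± 0.64% in WT (SD, n = 3 each). None of these shares overlapped between the groups, and each gave p = 0.1 in an exact two-sided permutation test, the smallest that 3 against 3 libraries can give (also 0.1 after adjustment over the 6 shares tested). The summed FPKM of the 3 genes was 11.8 ± 0.68 in KO and 18.8 ± 1.40 in WT (SD, n = 3 each; exact permutation p = 0.1). From raw counts per kilobase of annotated exon instead, Has2 took 72.2 ± 2.44% in KO and 17.2 ± 1.96% in WT (SD, n = 3 each).

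The promoter of Has1 is shown because Has1 was the leading synthase of the WT cells. These are the 250 bases before its start (RefSeq, build GRCm38.p6, chr17:17855189-17855438, minus strand), with motif letters in capitals.
Has1: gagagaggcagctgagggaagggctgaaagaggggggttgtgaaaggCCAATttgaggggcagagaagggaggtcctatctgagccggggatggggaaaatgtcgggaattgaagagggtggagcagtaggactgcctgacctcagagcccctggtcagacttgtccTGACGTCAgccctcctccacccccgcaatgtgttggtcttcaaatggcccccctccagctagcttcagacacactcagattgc
The TATA box was searched as TATAAA on both strands. The other motifs, also on both strands, were the CCAAT box by its own letters, the GC box as GGGCGG, the AP-1 site as TGANTCA, the E-box as CACGTG and the cAMP response element (CRE) as TGACGTCA, which was added after this sequence had been read. In Has1 the capitals mark a CCAAT match at -203 to -199 from the start, which 33.8% of 32851 RefSeq promoter windows of the same length also hold, and a CRE match at -83 to -76, found in 1.55% of windows. A match describes letters only and does not show a binding site.

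Enzymes that supply the sugar nucleotides moved in both directions. Of 13 tested genes of precursor synthesis, 7 were higher, 5 lower and 1 did not pass, so that 92.3% were called, against 69.3% of all tested genes. Their median log2 ratio was 0.42, against 0.03 for all tested genes. On the glucuronic acid branch, Ugp2, which makes UDP-glucose, had 80.3, 90.9 and 80.4 CPM in KO, against 46.8, 48.6 and 52.3 CPM in WT. Ugdh, which oxidises UDP-glucose to UDP-glucuronic acid, had 252.7, 249.3 and 258.8 CPM in KO, against 159, 148.5 and 156.2 CPM in WT (log2 ratio 0.71 ± 0.04 SE, edgeR adjusted p = 1.49e-06). Both rose in KO without overlap of the groups. On the N-acetylglucosamine branch the entry enzyme Gfpt2 fell to 32.9 ± 2.43 CPM in KO, against 69.2 ± 5.50 CPM in WT (SD, n = 3 each), and its relative Gfpt1 was 0.814 times the WT level. Gnpnat1, the acetyltransferase of the next step, was 0.541 times the WT level. Gnpnat1 shares 3878 of its 4735 exon bases with Styx on the opposite strand, so that its counts are uncertain. Pgm3, which follows it, rose 2.50-fold and shares 1270 of its 4487 exon bases with Dop1a, whereas Uap1, the last enzyme, was 0.829 times the WT level (edgeR adjusted p = 0.017, or 0.0523 to 0.0635 without KO replicate 1, KO replicate 2 or WT replicate 2). Its paralogue Uap1l1 rose to 151.3 ± 9.77 CPM in KO, against 45.6 ± 2.93 CPM in WT (SD, n = 3 each). Gpi1, the isomerase that feeds fructose-phosphate into this branch, rose 2.94-fold.

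Cemip showed the largest difference of the 10 genes. Cemip (ENSMUSG00000052353, chromosome 7), a hyaluronan-binding protein that fibroblasts need to depolymerise hyaluronan, had 7372, 6782 and 7287 counts in KO, against 59, 43 and 64 counts in WT. In scaled terms these were 125.7, 123.3 and 123.6 CPM in KO and 0.935, 0.717 and 1.02 CPM in WT, with each KO library far above every WT library. The difference was 139-fold (log2 ratio 7.12 ± 0.12 SE, edgeR adjusted p = 2.07e-09), and 4.49% of all tested genes had an absolute log2 fold change at least as large. Hyal2 (ENSMUSG00000010047, chromosome 9), the membrane-anchored hyaluronidase that makes the first cuts, had 27.0, 23.3 and 27.9 CPM in KO, against 9.07, 6.47 and 12.4 CPM in WT. It was 2.80-fold higher without overlap of the groups, although the WT libraries were spread widely (log2 ratio 1.49 ± 0.22 SE, edgeR adjusted p = 4.84e-04). Hyal1 (ENSMUSG00000010051, chromosome 9), the lysosomal hyaluronidase, had 8.15, 8.37 and 7.33 CPM in KO and 5.88, 10.9 and 8.91 CPM in WT. The KO values lay inside the WT range and Hyal1 did not pass the test (log2 ratio -0.11 ± 0.22 SE, edgeR adjusted p = 0.673). Without WT replicate 2 its sign turned (0.10). Hyal1 shares 1920 of 3777 exon bases (50.8%) with Naa80 on the same strand, which was 2.25-fold higher in KO, so the counts of Hyal1 are uncertain.

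The promoter window of Cemip is shown because no other of the 10 genes differed as much. It covers chr7:84086506-84086755 on the minus strand (RefSeq, build GRCm38.p6).
Cemip: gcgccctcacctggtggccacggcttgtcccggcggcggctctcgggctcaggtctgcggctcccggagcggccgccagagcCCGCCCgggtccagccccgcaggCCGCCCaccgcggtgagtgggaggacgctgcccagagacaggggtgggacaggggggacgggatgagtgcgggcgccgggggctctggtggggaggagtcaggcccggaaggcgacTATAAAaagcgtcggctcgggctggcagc
The capitals mark a TATAAA match at -29 to -24 from the start, which 12.4% of the 32851 windows hold, and a pair of GC boxes on the reverse strand (CCGCCC), at -168 to -163 and -145 to -140, a motif found in 32.7% of windows. The window is 75.2% G or C, against 58.0% in Has1 and a median of 52.4% over all windows. Of the 8 members of the list with a promoter in the RefSeq table, Cemip was the only one with TATAAA in these 250 bases. Has1 was the only one with TGACGTCA, a motif that was added because it had been read there. Has2 and Has3 had no promoter in that table and could not be compared.

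**Figure D2:**
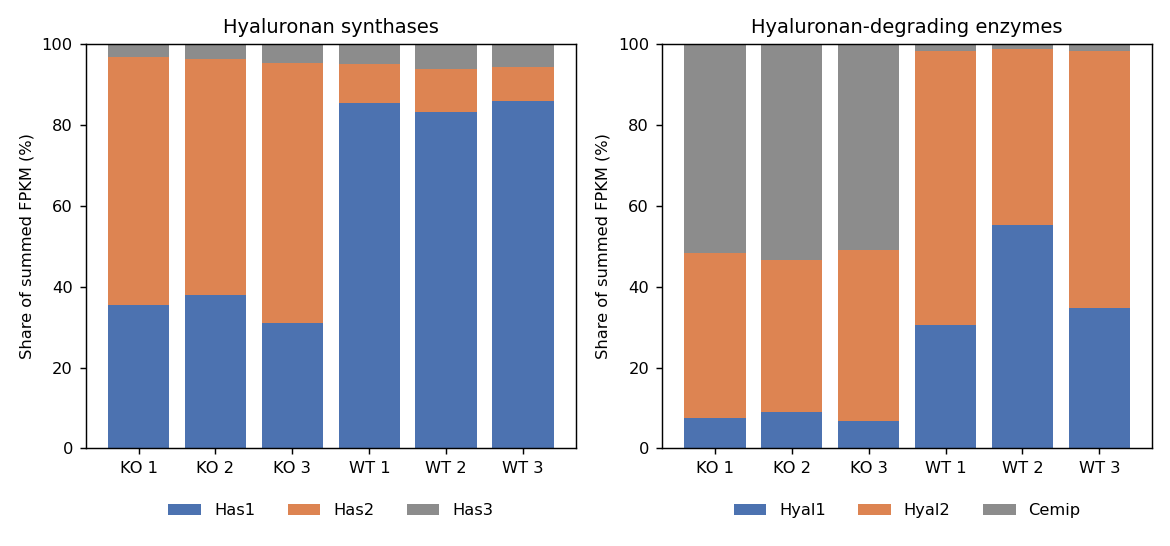
Share (%) of each gene in the summed deposited FPKM of the 3 synthases (left) and of Hyal1, Hyal2 and Cemip (right), 1 bar per library, KO left of WT. Has2 makes up 58.5% to 64.5% of the synthase sum in KO and 8.38% to 10.6% in WT, and Cemip 51.0% to 53.4% of the degrading proteins in KO and 1.2% to 1.76% in WT.

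The makeup of the degrading proteins differed as that of the synthases did. Cemip was 51.8%, 53.4% and 51.0% of the summed FPKM of Hyal1, Hyal2 and Cemip in KO, against 1.76%, 1.2% and 1.74% in WT. Hyal2 averaged 40.2 ± 2.35% in KO and 58.3 ± 12.9% in WT, and Hyal1 7.73 ± 1.12% in KO and 40.2 ± 13.2% in WT (SD, n = 3 each). A lower share was not a lower level for Hyal2, at 12.3 ± 1.03 FPKM in KO and 4.81 ± 1.48 FPKM in WT (SD, n = 3 each). Hyal1 itself did not pass the test. Each of these differences gave an exact two-sided permutation p of 0.1, the smallest possible, except that Hyal2 gave 0.2 from counts per kilobase of exon. The sum of the 3 genes was 30.5 ± 0.85 FPKM in KO and 8.23 ± 1.53 FPKM in WT (SD, n = 3 each; exact permutation p = 0.1).

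Of 9 other degradation genes, 5 passed the filter on low counts, of which 4 rose, 0 fell and 1 did not pass, where 35.1% of all tested genes were higher. Hexa, a subunit of lysosomal beta-hexosaminidase, had 229.9, 221.2 and 237.6 CPM in KO, against 41.9, 46.6 and 43.6 CPM in WT (log2 ratio 2.38 ± 0.06 SE, edgeR adjusted p = 1.10e-08). Gusb, the lysosomal beta-glucuronidase, was 4.15-fold higher. These enzymes also act on other sugar chains. Cemip2, a membrane-bound relative of Cemip, had 52.1, 46.9 and 49.4 CPM in KO, against 23.0, 22.7 and 25.6 CPM in WT, a 2.08-fold rise without overlap. Hyal3 had 17, 8 and 6 counts in KO and 26, 18 and 28 counts in WT and missed the threshold, with a log2 ratio below 0 (-1.10 ± 0.58 SE, edgeR adjusted p = 0.126). With limma on the deposited FPKM it was called lower (-0.73, adjusted p = 0.0205). Hyal4, Hyal5 and Spam1, the sperm hyaluronidase, had no count in any library. Hyal6 had 10 counts, all of them in WT replicate 2.

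Cd44 and Vcan were the most abundant of the 10 genes per length (FPKM) in both genotypes, and Cd44 did not pass the test. Cd44 (ENSMUSG00000005087, chromosome 2), the principal cell-surface receptor of hyaluronan, had 193.1, 199.8 and 191.0 CPM in KO and 172.1, 223.1 and 215.4 CPM in WT. The KO values fell inside the wider WT range (log2 ratio -0.06 ± 0.09 SE, edgeR adjusted p = 0.556). The call was not stable: Cd44 was lower in KO without WT replicate 1 (-0.17, edgeR adjusted p = 0.0207) and with limma on the deposited FPKM (-0.27, adjusted p = 0.0243), while without WT replicate 2 its log2 fold change was 0.0065. Gene counts do not resolve the splice variants of Cd44. The ERM proteins that tie CD44 to actin fell: Ezr had 91.0, 105.4 and 99.1 CPM in KO, against 173.7, 165.5 and 166.3 CPM in WT, Rdx was 0.786 times and Msn 0.776 times the WT level. Of the proteases known to shed CD44, Mmp14 rose 8.54-fold and Adam17 1.67-fold, and Adam19, a relative in the same list, rose 2.46-fold. Adam10 fell to 173.9, 99.4 and 171.8 CPM in KO, against 386.1, 429.4 and 394.2 CPM in WT. In this list of 7 linkers and sheddases, 3 genes were higher and 4 lower, where 35.1% of all tested genes were higher and 34.2% lower.

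The other hyaluronan receptors differed among themselves. Of 9 genes 7 were tested, with 3 higher, 2 lower and 2 not passing, so that 71.4% were called, near the 69.3% of all tested genes. Habp4, an intracellular hyaluronan-binding protein, was 1.23-fold higher (edgeR adjusted p = 0.0123) and lost its call with scaling by total counts (adjusted p = 0.129) and with limma on FPKM (adjusted p = 0.155). Layn, a membrane lectin that binds hyaluronan, had 54.6, 45.1 and 55.6 CPM in KO, against 3.28, 4.3 and 4.02 CPM in WT, a 13.4-fold rise (log2 ratio 3.74 ± 0.14 SE, edgeR adjusted p = 7.87e-08). Hmmr, a hyaluronan-binding protein that also serves at the mitotic spindle, had 22.6, 28.7 and 28.1 CPM in KO, against 43.4, 47.7 and 46.1 CPM in WT. It fell without overlap (log2 ratio -0.79 ± 0.10 SE, edgeR adjusted p = 1.61e-04). Tlr2, a pattern receptor reported to sense hyaluronan fragments, was 1.49-fold higher. Its relative Tlr4 had 3894, 3726 and 3868 counts in KO and 1635, 154 and 297 counts in WT, where replicate 1 stood apart. Tlr4 did not pass the test over all libraries (log2 ratio 2.59 ± 0.95 SE, edgeR adjusted p = 0.0617), and without WT replicate 1 it did (4.19, edgeR adjusted p = 3.88e-05). Tlr4 also passed with DESeq2 (2.58, adjusted p = 0.0107), limma-voom (3.27, adjusted p = 9.98e-04) and limma on FPKM (2.73, adjusted p = 0.00851). Stab1, a scavenger receptor that takes up hyaluronan fragments, fell to 29, 52 and 16 counts in KO, against 289, 219 and 168 counts in WT. Habp2, a hyaluronan-binding serine protease, had 9 counts, all in WT replicate 3. Lyve1, the receptor of lymphatic endothelium, had no count in any library.

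Vcan had the highest FPKM of the 10 genes in KO and differed little between the genotypes. Vcan (ENSMUSG00000021614, chromosome 13) encodes versican, the large proteoglycan whose head binds hyaluronan. It had 671.4, 676.5 and 629.4 CPM in KO, against 613.2, 490.6 and 551.4 CPM in WT. The groups did not overlap, and the difference was 1.195-fold (log2 ratio 0.26 ± 0.08 SE, edgeR adjusted p = 0.0179). This call was lost with scaling by total counts (0.13, adjusted p = 0.145), with limma on the deposited FPKM (0.19, adjusted p = 0.106), and without KO replicate 1 (0.24, edgeR adjusted p = 0.0561) or KO replicate 2 (0.24, edgeR adjusted p = 0.0558). Scaling by total counts moved the median log2 fold change of all genes to -0.0992, against 0.0313 with TMM.

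Per length, the order of the 10 genes differed between the genotypes, the leading pair Vcan and Cd44 included. In KO the deposited FPKM ran from Vcan (59.0 ± 1.502) and Cd44 (52.1 ± 1.78) over Cemip (15.9 ± 0.19), Hyal2 (12.3 ± 1.03), Has2 (7.23 ± 0.15), Has1 (4.11 ± 0.63) and Hyal1 (2.35 ± 0.28) to Tnfaip6 (0.651 ± 0.204) and Has3 (0.445 ± 0.081; SD, n = 3 each). In WT it ran from Cd44 (62.8 ± 3.78) and Vcan (51.9 ± 4.57) over Has1 (15.9 ± 1.44), Hyal2 (4.81 ± 1.48), Hyal1 (3.29 ± 1.08), Has2 (1.79 ± 0.15), Tnfaip6 (1.49 ± 0.21) and Has3 (1.06 ± 0.07) to Cemip (0.130 ± 0.040; SD, n = 3 each). Neighbours whose means lay within their summed SDs were Tnfaip6 and Has3 in KO, and Hyal2 with Hyal1, and Has2 with Tnfaip6, in WT.

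Proteases that cut versican had larger fold changes than Vcan. Of 6 ADAMTS proteases known to cleave it, 5 were tested and all 5 rose, where 35.1% of all tested genes were higher. Of these 5, Adamts9 and Adamts15 passed the filter on low counts through their KO libraries alone. Adamts5 had 418.9, 390.1 and 387.2 CPM in KO, against 17.3, 16.8 and 16.6 CPM in WT (23.6-fold, log2 ratio 4.56 ± 0.05 SE, edgeR adjusted p = 5.91e-10). Adamts1 rose 8.80-fold and Adamts4 4.42-fold. Adamts15 was at 54.05 ± 2.32 CPM and Adamts9 at 14.3 ± 0.95 CPM in KO (SD, n = 3 each), and both had 0 counts in all WT libraries. Against a floor of 3 counts over the WT group, Adamts15 was at least 3350-fold and Adamts9 at least 884-fold higher. Adamts20 had no count. Such floors cover counting error only.

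Genes that build the chondroitin sulfate chains carried by versican were mostly higher. Of 19 tested genes 13 rose, 3 fell and 3 did not pass, median log2 ratio 1.39, and 35.1% of all tested genes were higher. Xylt2, B3gat3 and Csgalnact2 fell. Without KO replicate 2 the number lower was 1, as Xylt2 and Csgalnact2 lost their calls (edgeR adjusted p = 0.0648 and 0.0823). Chpf, among the 13, lost its call with no filter on low counts (edgeR adjusted p = 0.0637). It also did so without WT replicate 2 (0.0853) or WT replicate 3 (0.0701). Chst15, which adds a further sulfate to chondroitin, had 26.2, 28.7 and 23.0 CPM in KO, against 0.317, 0.0667 and 0.191 CPM in WT (133-fold, log2 ratio 7.06 ± 0.35 SE, edgeR adjusted p = 7.10e-07). Dse, the epimerase that turns chondroitin into dermatan sulfate, rose 3.72-fold, and the sulfotransferases Chst12 and Chst11 rose 4.99-fold and 2.61-fold. Chst13, Xylt1 and Chsy3 had 0 counts in all WT libraries and passed the filter through KO alone. Chst7, with 5, 5 and 3 counts in WT, also passed it through KO alone. The same holds for Chst15, whose 20, 4 and 12 counts in WT would not have passed it by themselves. In KO Chst13 was at 1.37 ± 0.53 CPM, Xylt1 at 0.942 ± 0.612 CPM and Chsy3 at 0.248 ± 0.058 CPM (SD, n = 3 each), at least 85.1-fold, 58.4-fold and 15.35-fold higher against the same floor.

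Hapln1 (ENSMUSG00000021613, chromosome 13), the link protein that locks versican or aggrecan onto hyaluronan, had 0 counts in all 6 libraries. A count of 0 allows up to 3 counts over a group, or 0.0174 CPM in KO and 0.0161 CPM in WT. Of the other link proteins, Hapln4, known from brain, was counted instead: it had 27.5, 22.9 and 21.3 CPM in KO, against 73.4, 76.6 and 67.2 CPM in WT. Hapln4 fell 3.03-fold without overlap (log2 ratio -1.60 ± 0.10 SE, edgeR adjusted p = 2.16e-06). Hapln3 summed to 29 counts in KO and 39 in WT, and Hapln2 to 0 in KO and 9 in WT. Aggrecan, Acan, had no count in KO and 8 counts in WT, and Ncan and Bcan, the brain members of the family, had 8 to 16 counts per group.

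The genes that crosslink hyaluronan with serum and pentraxin proteins did not move together. Tnfaip6 (ENSMUSG00000053475, chromosome 2) encodes TSG-6, which transfers the heavy chains of inter-alpha-inhibitor onto hyaluronan. It had 84, 48 and 100 counts in KO, against 178, 142 and 201 counts in WT, or 1.43, 0.873 and 1.70 CPM in KO and 2.82, 2.37 and 3.20 CPM in WT. All KO values were below all WT values at these low levels, a 2.09-fold difference (log2 ratio -1.06 ± 0.30 SE, edgeR adjusted p = 0.012). Ptx3, a pentraxin that binds TSG-6 and heavy chains, had 44.3, 44.3 and 41.8 CPM in KO and 0 counts in all WT libraries, at least 2692-fold higher against the floor. Itih2, a heavy chain, was at 14.4 ± 0.997 CPM in KO and 13.6 ± 1.22 CPM in WT (SD, n = 3 each; edgeR adjusted p = 0.559), with a sign that turned under scaling by total counts (-0.05) and with limma on FPKM (-0.08). Itih3 was at 1.18 ± 0.63 CPM in KO and had 6 counts, all in replicate 1, in WT (edgeR adjusted p = 0.00226). Itih1 had 38 counts in KO and 0 in WT, too few for the test and at least 13.8-fold higher. Ambp, the light chain of inter-alpha-inhibitor, had no count. The list of other lecticans, link proteins and crosslinkers, which holds the Hapln, Acan, Ncan and Bcan genes above but not Tnfaip6, has 13 genes, of which 7 were tested. Of these, 2 were higher (Ptx3 and Itih3), 1 was lower (Hapln4) and 4 did not pass, or 42.9% called against 69.3% of all tested genes. Ptx3 and Itih3 passed the filter on low counts through their KO libraries alone. The number higher was 1 with a filter of at least 1 CPM in 3 libraries, and 4 when any 1 of the WT libraries was left out.

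**Figure D3:**
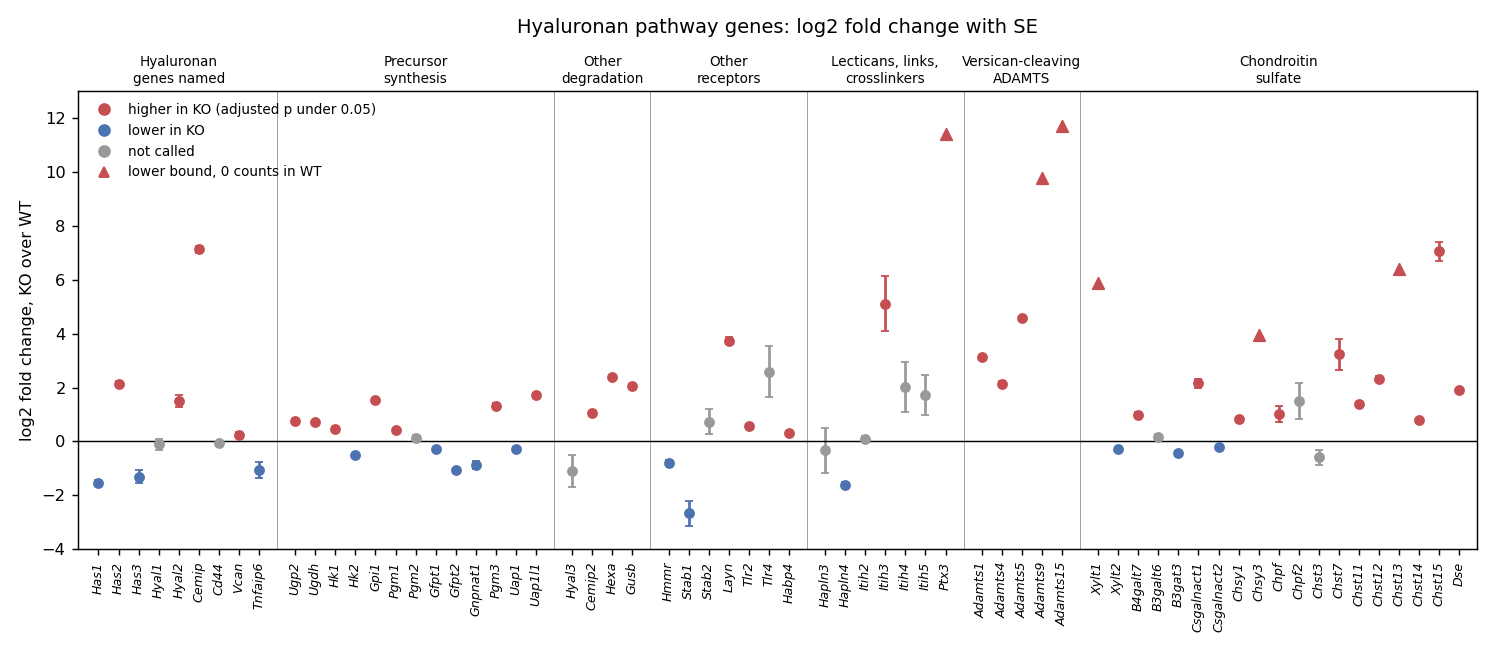
Log2 fold change of KO over WT with its SE for the tested hyaluronan genes and 6 related lists (1 degradation gene is not drawn), coloured by call; triangles are lower bounds for genes at 0 counts in WT. The versican-cleaving proteases all lie above 0, the precursor genes lie on both sides, and Cemip stands at 7.12 among the hyaluronan genes.

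Genes beside the clustered members were compared, since Hapln1 and Vcan are neighbours on chromosome 13 and Hyal1 and Hyal2 on chromosome 9. Edil3, a secreted integrin ligand next to Hapln1, was at 6.21 ± 0.27 CPM in KO (SD, n = 3) and at 0 counts in WT, at least 385-fold higher, while Hapln1 was at 0 in both. Beyond Edil3, Cox7c rose 1.89-fold and Rasa1 3.02-fold. On the side of Vcan, Xrcc4 and Tmem167 missed the threshold (edgeR adjusted p = 0.0508 and 0.667) and Atp6ap1l had 4 counts in KO and 8 in WT. Next to Hyal2, Tusc2 rose 1.42-fold, and Rassf1 and Zmynd10 did not pass (edgeR adjusted p = 0.576 and 0.756). On the far side of Hyal1, Naa80 rose, Hyal3 did not pass, and Ifrd2 fell to 11.3 ± 1.95 CPM in KO, against 59.6 ± 5.09 CPM in WT (SD, n = 3 each). On chromosome 9 the neighbours that passed went in both directions, and on chromosome 13 all that passed were higher in KO. Of the latter, Edil3 passed the filter on low counts through KO alone. Among all tested genes 69.3% passed the test, 35.1% higher and 34.2% lower in KO. These few neighbours give no result about either block.

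**Figure D4:**
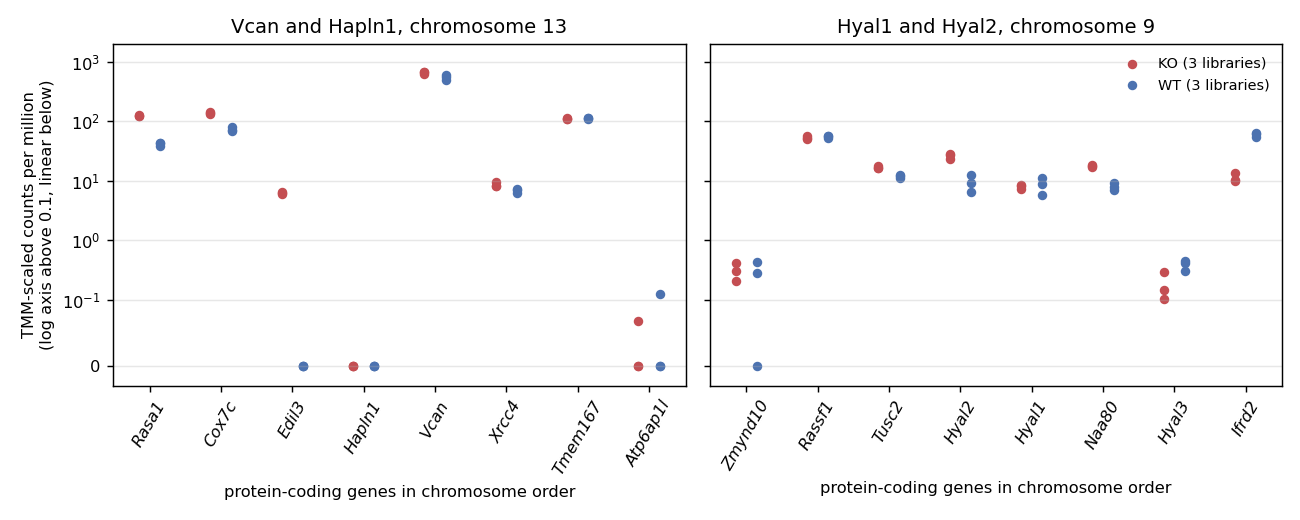
TMM-scaled CPM of the protein-coding genes around Hapln1 and Vcan (left) and around Hyal2 and Hyal1 (right) in chromosome order, 1 point per library, KO left of WT; the axis is logarithmic above 0.1 and linear below. Edil3 is at 6.21 CPM in KO and 0 in WT beside Hapln1 at 0 in all libraries, and Ifrd2 lies below its WT level in KO.

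The profile of Cemip, the gene of the list with the smallest adjusted p, was set against all tested protein-coding genes. Over the 6 libraries, the 5 nearest by Euclidean distance of mean-centred log2 CPM were A4galt (0.233), Ephb2 (0.369), Gm7361 (0.374), Cpa6 (0.375) and Gucy1a2 (0.390). A4galt, a glycolipid galactosyltransferase, was at 53.5 ± 2.34 CPM in KO and 0.375 ± 0.083 CPM in WT (SD, n = 3 each), and Ephb2, an ephrin receptor, at 24.8 ± 1.71 CPM in KO and 0.188 ± 0.033 CPM in WT (SD, n = 3 each). The other 3 were at 4.26 to 4.53 CPM in KO and at 0 counts in WT, and passed the filter on low counts through KO alone. Against the floor of 3 counts they were at least 264-fold higher, where Cemip was 139-fold higher. The log2 CPM used a prior count of 2, which sets how far below the KO values a count of 0 lies. The distance counts the difference between KO and WT and the spread within each group alike.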

How the data were processed

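RNA sequencing of 3 KO and 3 WT libraries was used, grouped by sample title. The deposited table gives, per the file headers, raw read counts and FPKM of each library by Ensembl gene. The submitters' processing notes name CASAVA 1.8, HISAT2, SAMtools 1.3.1, edgeR and build GRCm39, without saying which step used which. How reads were counted, with what strand setting and gene annotation, is not given in the sources used here. Of 56393 genes, 98.23% were matched to a symbol in GENCODE M21, which is of GRCm38. It served for symbols, chromosomes, the choice of protein-coding genes, gene order, exon lengths and shared exon bases. Shared bases may differ in the annotation used for counting. Promoters come from RefSeq on GRCm38.p6 and were matched by symbol for 8 of 10 genes.

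Counts were filtered with filterByExpr (18732 genes kept), TMM-scaled and compared between KO and WT by the quasi-likelihood test of edgeR 4.0.16 (robust, R 4.3.3), with no covariate and Benjamini-Hochberg adjustment at 0.05. Log2 ratios are KO over WT, their SEs follow from the F statistic, and CPM are TMM-scaled. In a check on simulated counts, somewhat more of the calls were false than the nominal rate, and most of the smallest built-in differences were missed. That check changed 200 of 17053 genes, whereas 69.3% of the tested genes passed in the data. Its rates therefore may not carry over to these libraries. Libraries of 1 group differed beyond counting noise (chi-square of 20.7 to 31.6 for each degree of freedom) and were kept as separate samples. Levels were compared between genes only in FPKM or counts per kilobase of exon, with exact permutation tests in scipy 1.17.1. Alternatives were other scalings and filters, DESeq2 1.42.0, limma 3.58.1 (voom, and log2(FPKM + 0.1)), the replicate number as a block, and each library left out.

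The genes and lists were chosen with earlier results of these data known. From each list the 3 smallest adjusted p and genes at 0 in 1 group were named, with all 10 hyaluronan genes, Nono, the defining markers, the 3 nearest protein-coding neighbours on each side and the 5 nearest profiles. Further genes of the lists, and the CRE motif, were chosen after their values or letters had been seen. For 1 gene that this rule names, the result is not reported here.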

Additional observations from a re-analysis of the deposited data

How the results depend on the processing

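Over 14 alternatives, 11393 to 13368 genes passed, against 12980 in the main setting, 3 to 4 of the hyaluronan genes were higher and 3 to 4 lower, and Has1, Has2, Has3, Hyal2, Cemip and Tnfaip6 kept their direction and their call in every one (Cemip log2 fold change 6.13 to 7.23, Has2 1.96 to 2.20, Has1 -1.93 to -1.44). Vcan kept its direction and lost its call in 4. The cause was not tested. Values that changed sign were those of genes that had not passed: Hyal1 (-0.31 to 0.10 over the libraries left out), Cd44 (-0.17 to 0.0065), Hapln3 (-1.24 to 0.10), and Itih2 with scaling by total counts (-0.0524) and limma on FPKM (-0.0793). The shares of the synthases and degrading proteins kept their direction from counts per kilobase and with each library left out, where the exact permutation test of 2 against 3 libraries cannot go below p = 0.2. Replicate numbers did not mark pairs: same-numbered KO and WT libraries correlated in their deviations at -0.0237, 0.018 and -0.00904. With the replicate number as a block 12233 genes passed, and 4 hyaluronan genes were higher and 3 lower, as without it. Genes under about 1 CPM, such as Hyal3, Itih1 and Chsy3, rest on few counts.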

Other observations

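Counts of a few loci moved between libraries of the same genotype. Chtf8, which overlaps Has3, is listed under 2 IDs: the first had 8140, 1087 and 8316 counts in KO and 10852, 8905 and 10276 in WT, and the second had 103, 7137 and 108 in KO and 484, 418 and 466 in WT. Reads of KO replicate 2 thus went mostly to the second ID and those of the other libraries to the first. Styx, which overlaps Gnpnat1, had 971, 848 and 712 counts in KO and 5810, 1611 and 1663 in WT. Chpf2, a chondroitin polymerising factor, had 9903, 2023 and 3620 counts in KO and 2288, 2267 and 1263 in WT and missed the threshold (edgeR adjusted p = 0.102).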
